A study of Mus musculus and Homo sapiens with 60 samples.

Results

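Myc binding in P493-6 cells was compared between a low and a high Myc state, as 2 of the 60 samples of the series, chosen by their titles and with 1 library each. P493-6 cells are human B cells in which tetracycline shuts off a Myc transgene, and they also carry the viral factor EBNA2 fused to a hormone-binding domain. Low-Myc cells received 200 nM 4-hydroxytamoxifen (OHT), which by the labels activates the endogenous Myc gene, together with 0.2 µg/mL tetracycline, which represses the transgene. High-Myc cells were untreated and expressed the transgene. The states therefore differed in OHT, in tetracycline and in the gene that supplied Myc as well as in its level, and these cannot be told apart. Chromatin immunoprecipitation followed by sequencing (ChIP-seq) gave a list of peaks per library, with 4309 peaks at low and 26146 at high Myc. They were set on lists of H3K4me3, H3K27ac and RNA polymerase II (RNAPII) from cells released for 24 h after 72 h of 0.2 µg/mL tetracycline, and on RNAPII of cells kept under tetracycline at that dose (0 h). The marks thus came from neither the low nor the high cells.

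Myc is a basic helix-loop-helix leucine zipper factor that pairs with Max, and the pair recognises E-box sequences. It mostly sits at promoters that are already open and carry H3K4me3 and H3K27ac, and at higher levels it is also found at enhancers, which carry H3K27ac with little H3K4me3. RNAPII marks promoters where the polymerase is loaded and genes that are being transcribed. Peaks are given by hg19 coordinates counted from 1, since no human gene annotation or sequence was used here.

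High Myc gave more sites and wider ones. The number of peaks was 6.07 times that at low Myc, and the length they covered was 10.7 times as large, 18.3 Mb against 1.71 Mb. The median peak was 361 bp wide at low and 587 bp at high Myc. Almost all low sites were kept: 4065 of 4309 low peaks, or 94.3% (exact 95% binomial interval 93.6 to 95), overlapped a high peak. The other 244, or 5.66%, had none. In the other direction 3837 high peaks were shared with low Myc and 22309, or 85.3%, were added. When each list was cut to its 4309 highest scores, 63.7% of low peaks were kept and 41.2% of high peaks were added. With 1 library per state there was no replicate check of any difference, the read depth is unknown, and intervals cover counting error only.

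The sites bound at low Myc lay mostly on H3K4me3 and H3K27ac of the 24 h cells. Of the 4309 low peaks, 76.7% (75.4 to 77.9) overlapped H3K4me3, 86.5% (85.5 to 87.5) H3K27ac and 58.8% (57.3 to 60.3) RNAPII of the 24 h cells, and 54.3% had all of them. RNAPII of the 0 h cells was found at 38.0% (36.6 to 39.5). For scale, the H3K4me3 list covered 2.22% of the span of the chromosomes, H3K27ac 4.82%, and RNAPII 0.566% at 24 h and 0.275% at 0 h. Low peaks off H3K4me3 and on H3K27ac, the distal acetylated sites, numbered 42 with and 479 without 24 h RNAPII. A further 358 low peaks, 8.31%, lay on none of the 24 h lists. Stronger low peaks were more often on these lists. From the lowest to the highest of 4 equal bins of the deposited low score, the share on H3K4me3 was 70.9, 74.7, 79.0 and 82.2%, and the share on 24 h RNAPII was 48.4, 54.5, 60.9 and 71.5%. The share kept at high Myc was 89.1, 93.6, 96.2 and 98.5% in the same order. Each of these shares was higher in every next bin.

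The strongest low peaks were of more than one kind. The kept low peak with the highest score, 3100, spanned chr6:58776462-58779395. It lay on RNAPII at 0 and 24 h but on neither histone mark, and it was 2934 bp wide at low and 2941 bp at high Myc. The next, chr1:121483978-121485458, scored 2609.93 at low and 729.59 at high Myc and was 1481 and 1547 bp wide. It lay on H3K27ac and RNAPII but not on H3K4me3. The third, chr10:103892878-103893830, lay on H3K4me3, H3K27ac and 24 h RNAPII, and was 953 bp wide at low and 1833 bp at high Myc. All 3 were in every P493-6 Myc list, also in that under tetracycline at 0 h, when the transgene is repressed. Whether the signal at such sites comes from Myc was not tested, and no list of artefact-prone regions was applied. Of all low peaks 544 were also in the 0 h Myc list. These lay less often on H3K27ac (56.8 against 90.8% of the other low peaks) and more often on 0 h RNAPII (65.3 against 34.1%).

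**Figure D1:**
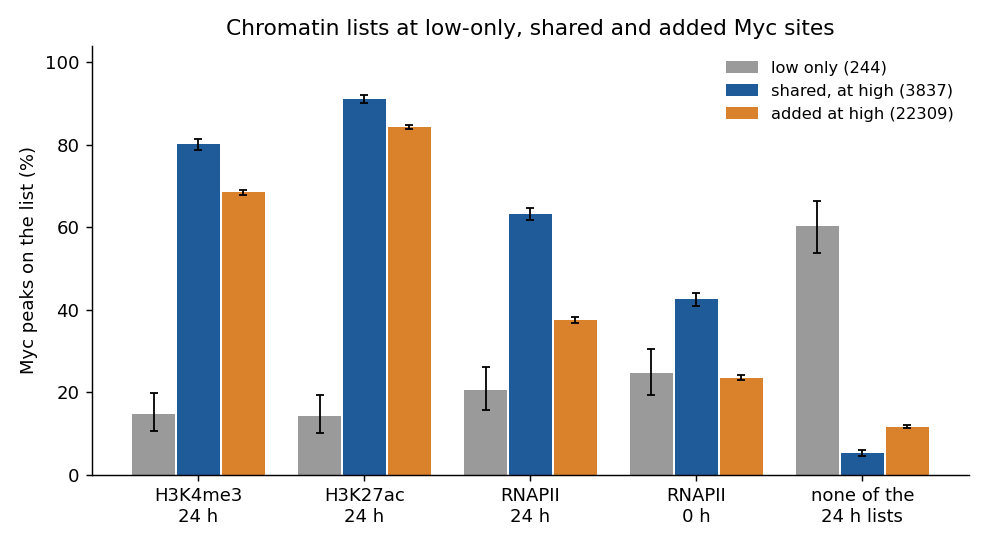
Share of Myc peaks (%) on each chromatin list for low peaks without a high peak, high peaks shared with low, and high peaks added, with exact 95% binomial intervals as bars. Shared peaks were highest on H3K4me3 (80.1%) and H3K27ac (91.2%), added peaks were at 68.5 and 84.4%, and 60.2% of the low-only peaks lay on none of the 24 h lists.

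The 244 low peaks without a high peak were unlike the kept ones. Of these, 14.8% (10.6 to 19.8) lay on H3K4me3 and 14.3% (10.2 to 19.4) on H3K27ac, against 80.4 and 90.8% of kept low peaks, and 60.2% (53.8 to 66.4) lay on no 24 h list. They were narrow, with a median of 224 bp against 368 bp, and weak, at a median low-score percentile of 25.8 against 51.5. Of them 42.2% (35.9 to 48.7) were present in the Myc list under tetracycline, against 10.8% (9.91 to 11.8) of kept peaks. The highest-scoring were chrM:1218-4170 and chr4:49151513-49151998, both in the 0 h, 1 h and 24 h Myc lists too. The next, chr6:42515706-42516223, lay on H3K4me3 and H3K27ac and was in no other P493-6 Myc list. Altogether 111 low peaks were in no other Myc list, of which 16 were on H3K4me3 and 29 on H3K27ac. Chromosomes Y and M held 21 of the 244, and were the chromosomes on which high Myc had fewer peaks than low (13 against 25, and 1 against 7). On the other chromosomes the number at high was 4.49 (chromosome 6) to 7.15 times (chromosome 15) that at low.

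The 22309 added sites also lay mostly on marked chromatin, but less on RNAPII. H3K4me3 was found at 68.5% (67.9 to 69.1) of them against 80.1% (78.8 to 81.3) of shared high peaks, and H3K27ac at 84.4% (83.9 to 84.9) against 91.2% (90.2 to 92.0). RNAPII of the 24 h cells was found at 37.5% (36.9 to 38.2) against 63.3% (61.7 to 64.8). RNAPII of the 0 h cells was found at 23.5% (23.0 to 24.1) against 42.6% (41.0 to 44.1). None of the 24 h lists covered 11.6% of added and 5.24% of shared peaks. Shared peaks were wider, with a median of 964 bp against 547 bp, and so offered more length to overlap. With Myc peaks set to 500 bp, the shared minus added difference was 10.7 percentage points for H3K4me3 and 6.06 for H3K27ac. It was 24.2 for 24 h RNAPII and 16.5 for 0 h RNAPII, against 25.7 and 19.0 at the deposited widths. The median distance of an added site to a low peak was 93.6 kb, and 3.30% lay within 1 kb. Of the added peaks on an H3K4me3 region, 7.21% (6.81 to 7.64) shared that region with a low peak, while 9.93% of all H3K4me3 regions held one. For H3K27ac the shares were 8.15% (7.76 to 8.55) of added peaks and 5.75% of all regions. In each case the first share counts peaks and the second counts regions. A high peak over a low peak is also shared by definition and cannot count as added. These shares therefore cannot tell whether added sites favour or avoid regions with a low peak.

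Over the whole lists, every chromatin class gained sites, and those without RNAPII multiplied most. Peaks on H3K4me3 with 24 h RNAPII, the polymerase-bound H3K4me3 sites, went from 2367 at low to 10380 at high Myc, a ratio of 4.39. On H3K4me3 without RNAPII the numbers were 937 and 7969, a ratio of 8.50. Distal acetylated sites without RNAPII went from 479 to 4584, a ratio of 9.57, and those with RNAPII from 42 to 222, a ratio of 5.29. Sites on 24 h RNAPII but neither histone mark went from 126 to 194, a ratio of 1.54. Peaks on none of the lists went from 358 to 2797, a ratio of 7.81. Polymerase-bound H3K4me3 sites therefore made up 54.9% of low peaks but 36.2% of added ones, and distal acetylated sites without RNAPII 11.1 and 18.6%. Low peaks were kept at 99.7% on polymerase-bound H3K4me3 sites, 97.0% on other H3K4me3 regions and 96.0% on distal acetylated sites without RNAPII. Low peaks on 24 h RNAPII but neither histone mark were kept at 67.5% (58.5 to 75.5), and those off all 24 h lists at 58.9% (53.6 to 64.1).

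Added sites stood lower in the high-Myc list, and the contrast in marks differed from one score to the next. Shared peaks had a median score percentile of 89.7 in the high list and added peaks of 43.6. In 10 equal bins of the high score, the share of high peaks with a low peak was 1.53% in the lowest bin, 5.28% in bin 6, 33.6% in bin 9 and 72.1% (70.4 to 73.8) in the highest. Added peaks were above shared peaks on H3K4me3 in every bin, and on 24 h RNAPII from bin 5 upward. They were also wider in every bin, and so offered more length to overlap. Their median was 360 bp against 324 bp for shared peaks in the lowest bin, and 1326 against 1277 bp in the highest. The part of width in these shares was not tested. In the highest bin H3K4me3 was found at 94.7% of 729 added and 91.9% of 1886 shared peaks, and 24 h RNAPII at 81.8 and 78.8%. In bin 8 the shares were 83.9 and 74.4% for H3K4me3 and 59.0 and 46.5% for RNAPII. In the lowest bin H3K4me3 was found at 52.7% of 2575 added peaks but at 25.0% of the 40 shared ones, while 24 h RNAPII was found at 17.2 and 27.5%. With the 4309 highest scores of each list, 2535 high peaks were shared and 1774 added, with H3K4me3 at 89.7 and 92.1%, H3K27ac at 98.1 and 97.9%, and 24 h RNAPII at 74.9 and 75%. The shared minus added difference was then -2.39 percentage points for H3K4me3, against 11.6 over the whole lists. For 24 h RNAPII it was -0.100 points (-2.75 to 2.58), against 25.7. When an overlap had to cover 50% of the peak, the difference was -3.37 points for H3K4me3 and -2.07 for H3K27ac, against 6.78 over the whole lists. In that setting the marks also had to cover 50% of the peak. A high peak over 2 times as wide as its only low peak then counted as added. This held for 68.6% of sites where 1 low peak met 1 high peak, so the setting cannot separate added from widened sites.

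**Figure D2:**
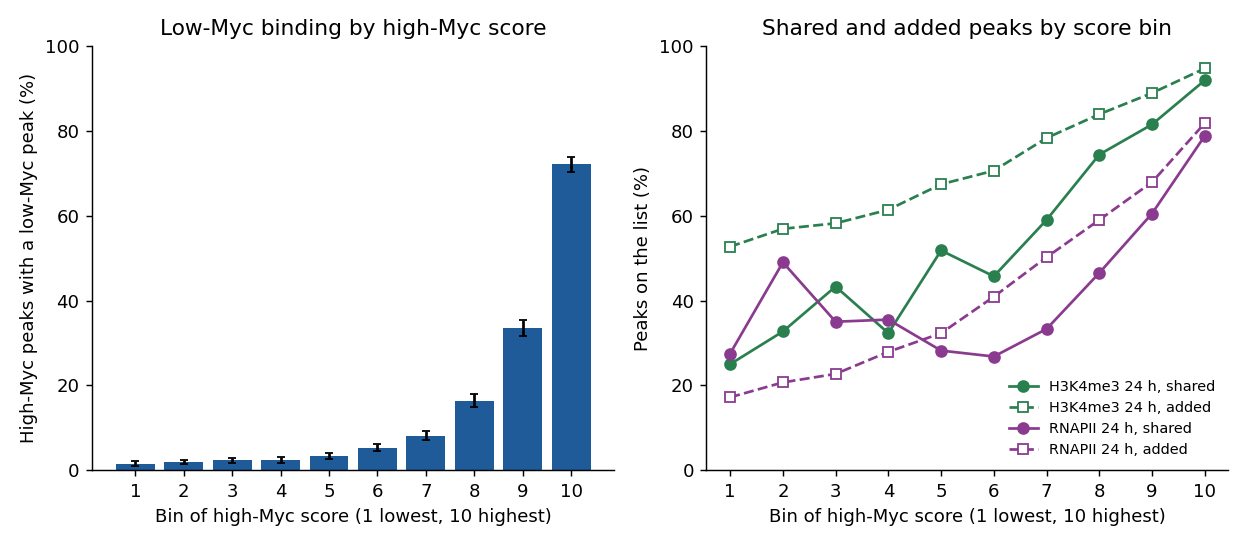
Left, share of high-Myc peaks (%) with a low-Myc peak in 10 equal bins of the deposited high score, with exact 95% binomial intervals. It climbs from 1.53% in the lowest bin to 72.1% in the highest. Right, share (%) of shared (filled) and added (open) peaks on H3K4me3 and 24 h RNAPII in the same bins. Added peaks lie above shared ones for H3K4me3 in every bin and for RNAPII from bin 5 upward.

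Some of the strongest high-Myc sites had no low peak. Of the 1000 highest-scoring high peaks, 105 were added. The strongest, chr9:93953771-93956929, was 3159 bp wide with a score of 2805.4, and lay on H3K4me3, on an H3K27ac region of 30283 bp and on RNAPII at both times. Next came chr12:131197901-131200376 (score 2681.55), with both marks and RNAPII at 24 h but not at 0 h, and chr12:131060657-131062431 (score 2475.24), on all of these lists. All of them were in the 24 h Myc list, at scores of 1093.86, 694.66 and 646.5. Of the added peaks of the highest bin, 99.3% were in that list. The strongest added sites off every 24 h chromatin list were chr1:202252469-202253263 (score 1712.9), chr19:10138226-10139015 (1174.22) and chr3:38692588-38693262 (870.52). They were 675 to 795 bp wide, without RNAPII at 0 h, and all were in the 24 h Myc list.

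The regions themselves showed the spread of Myc over H3K4me3. Of the 29953 H3K4me3 regions, 9.93% (9.59 to 10.3) carried a peak at low and 48.5% (48.0 to 49.1) at high Myc, and 21 were bound at low only. Where RNAPII was present at 0 and 24 h, 24.3% (23.3 to 25.4) of 6337 regions were bound at low and 88.3% (87.5 to 89.1) at high Myc. Where it was present at 24 h only, 17.7% (16.6 to 18.8) of 4470 regions were bound at low Myc, and 3576 of them (78.8 to 81.2%) at high Myc. The 602 regions with RNAPII at 0 h only had 6.81% (4.93 to 9.13) and 51.0% (46.9 to 55.1), and the 18544 without RNAPII 3.23% (2.98 to 3.49) and 27.3% (26.7 to 27.9). Wider H3K4me3 regions were bound more often: 2.15% at low and 17.5% at high Myc in the narrowest of 4 equal width bins (median 972 bp), against 24.3 and 85.4% in the widest (median 3893 bp). A wider region also offers more length to overlap, and the regions with RNAPII at both times were wider (median 3437 bp) than those with it at 24 h only (2646 bp), at 0 h only (2214 bp) or at neither (1370.0 bp). The high share was 12.6% when the high list was cut to 4309 peaks, and when 50% of a region had to be covered the shares were 0.0701 and 8.24%. Of the 33479 H3K27ac regions off H3K4me3, 1.14% (1.03 to 1.26) were bound at low and 10.5% (10.1 to 10.8) at high Myc.

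**Figure D3:**
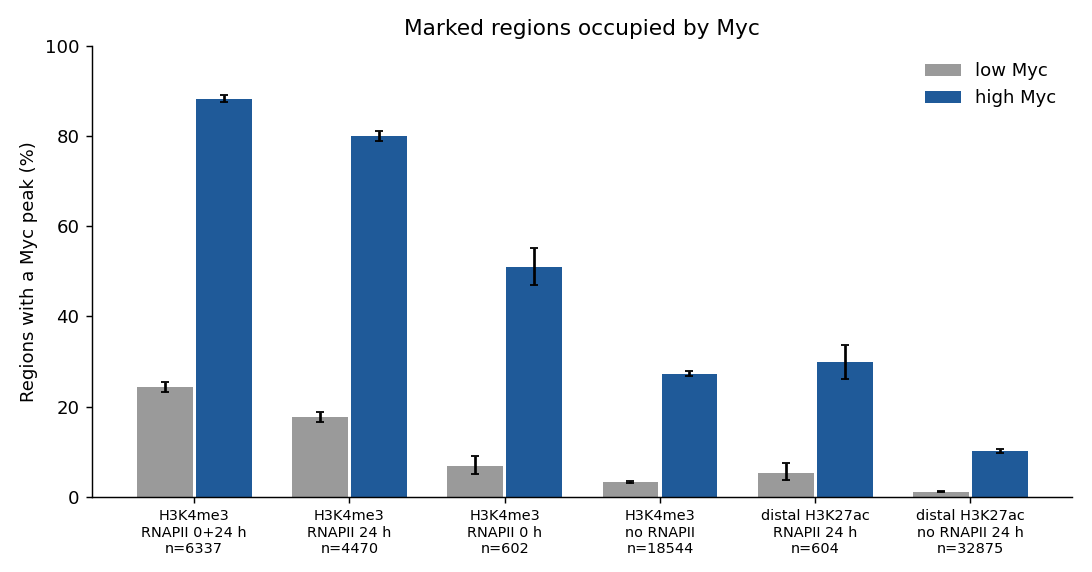
Share of H3K4me3 and distal H3K27ac regions (%) with a Myc peak at low and high Myc, by RNAPII at 0 and 24 h, with exact 95% binomial intervals and the number of regions below. Regions with RNAPII at both times lead at low (24.3%) and high Myc (88.3%), and distal regions without 24 h RNAPII are at 1.06 and 10.1%.

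Over the whole lists, RNAPII of the 0 h cells was more frequent at shared than at added sites, but not among higher-scoring peaks. In bins 5 to 10 of the high score it was more frequent at added peaks, with 26.0 against 18.8% in bin 6, 36.5 against 30.9% in bin 8 and 56.9 against 53.8% in bin 10. Added peaks were also the wider ones in these bins. With the 4309 highest scores of each list the shared minus added difference was 1.09 percentage points (-1.98 to 4.15), against 19.0 over the whole lists. Among all shared high peaks 40.8% (39.2 to 42.4) had RNAPII at both times, 22.5% at 24 h only, 1.77% at 0 h only and 35.0% at neither. Among all added peaks the shares were 21.6% (21.1 to 22.2), 15.9, 1.91 and 60.6%. Taking only the sites with RNAPII at 24 h, 64.5% (62.5 to 66.4) of shared and 57.6% (56.6 to 58.7) of added ones already had it at 0 h. The 0 h list was shorter, 13026 against 24613 peaks, and the part of list length in the 24 h-only sites was not tested. From the side of RNAPII, 64.4% (63.4 to 65.4) of the 9545 peaks present at both times carried high Myc and 16.1% (15.4 to 16.9) carried low Myc. Of the 15068 present at 24 h only, 30.0% (29.3 to 30.8) and 5.83% (5.46 to 6.22) did, and of the 2532 present at 0 h only, 22.0% (20.4 to 23.7) and 3.67% (2.97 to 4.48). The peaks present at both times were also wider, with a median of 775 bp against 419.5 bp at 24 h only and 347 bp at 0 h only, and so offered more length to overlap. The part of width in these shares was not tested.

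Shared sites widened at high Myc. For 3619 sites at which 1 low peak met 1 high peak, the median width was 367 bp at low and 936 bp at high Myc. The median ratio per site was 2.43 (binomial order-statistic 95% interval 2.38 to 2.47; 1.85 to 3.29 between the lower and upper quartile). The high peak was over 2 times as wide at 2483 of them, or 68.6%, and narrower at 30, or 0.829%. The low peak lay wholly inside the high peak at 96.5% of sites. The gain was even on both sides, with a median of 226 bp toward lower and 233 bp toward higher coordinates. At a single site the centres were a median of 77.0 bp apart.

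**Figure D4:**
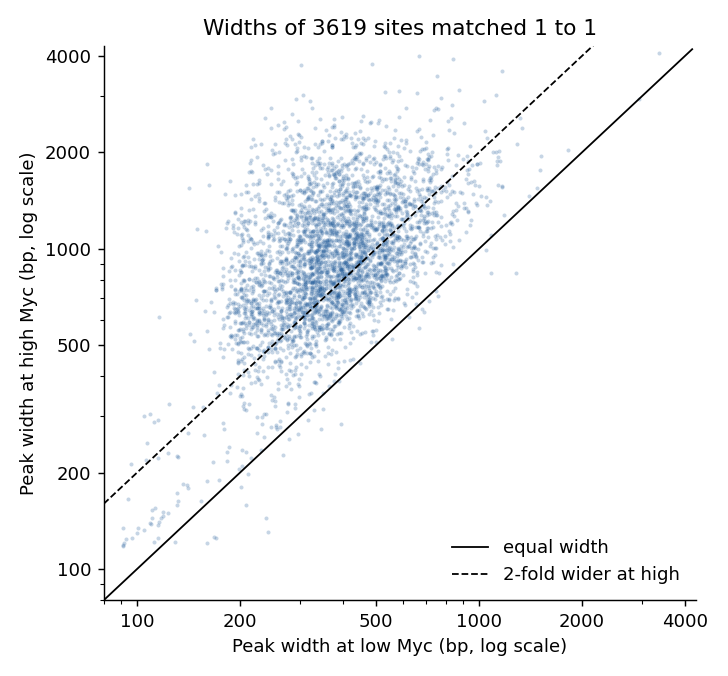
Width of each of 3619 matched sites at low (x axis) and high Myc (y axis), in bp on log scales, with lines for equal width (solid) and for 2 times the width at high (dashed). The cloud lies above the solid line but for 30 sites, and 2483 points lie above the dashed line.

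The widening was greatest at polymerase-bound H3K4me3 sites. There, at 2024 sites, the median ratio was 2.67 (2.61 to 2.72), from a median of 404 to 1110 bp. It was 2.39 (2.29 to 2.50) on other H3K4me3 regions, 2.05 (1.98 to 2.13) at 456 distal acetylated sites without RNAPII and 1.89 (1.77 to 2.01) off all 24 h lists. At the 68 sites on RNAPII but neither histone mark it was 1.23 (1.17 to 1.30). Sites already in the Myc list under tetracycline and off both histone marks widened as little, 1.22 times (1.12 to 1.29) at 89 sites, whereas those on a histone mark widened 2.03 times (1.91 to 2.13) at 299. Weak low peaks grew by the larger ratio, 3.13 in the lowest and 1.94 in the highest of the 4 low-score bins. The gain in base pairs was alike over these bins, with medians of 550, 520, 508 and 517 bp.

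Myc peaks covered more of the marked regions at high Myc, with a median below 50%. Among the 2953 H3K4me3 regions bound in both states, Myc peaks covered a median of 12.8% of the region at low and 40.0% at high Myc, and for 3404 H3K27ac regions 12.0 and 36.3%. The cover at high Myc counts every high peak on the region, added ones included, so it does not measure widening alone. Of the base pairs added in the flanks of shared sites (2.49 Mb), 87.5% lay within H3K4me3, 93.7% within H3K27ac and 47.5% within 24 h RNAPII. The low parts of the same sites (1.64 Mb) were at 82.4, 90.9 and 60.0%. The base pairs of added sites (14.2 Mb) were at 74.7, 85.2 and 34.7%. Widening made up 15.0% of the length bound at high and not at low Myc, and added sites the remaining 85.0%. With each list cut to 4309 peaks, widening made up 47.5%.

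**Figure D5:**
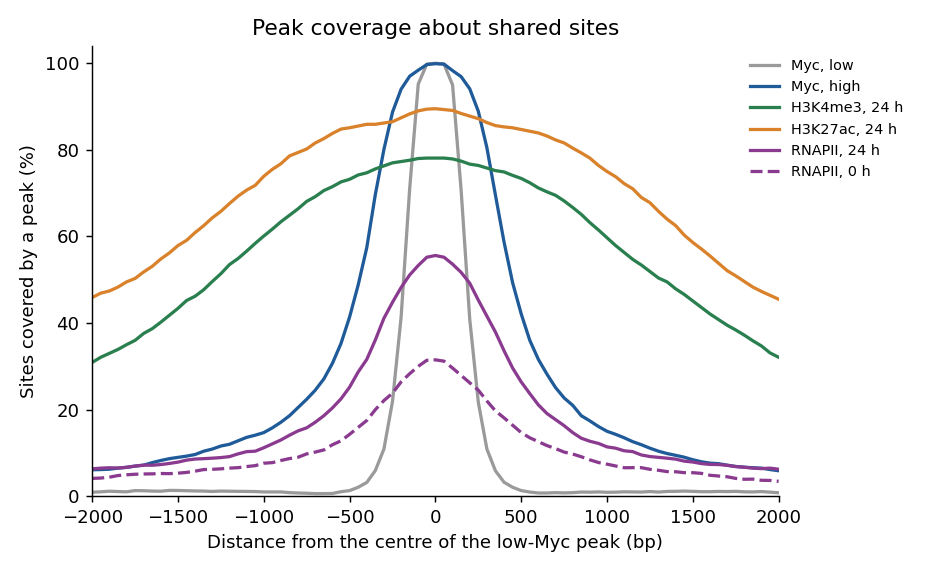
Share of the 3619 matched sites (%) covered by a peak of each list at a given distance in bp from the centre of the low peak, in steps of 50 bp. At 350 bp on the right, low Myc covers 5.86% of sites and high Myc 69.5%, while H3K4me3 and H3K27ac still cover 75.2 and 85.6%.

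The largest gains in width among matched sites were on broad marked regions. At chr1:28834757-28838494 the high peak was 3738 bp wide, and the low peak, 28837626 to 28837927, was 302 bp. At chr9:66455254-66459249 the widths were 3996 and 666 bp. At chr9:37032367-37036149 they were 3783 and 488 bp, within an H3K4me3 region of 19090 bp. All of these lay on both marks and on RNAPII at 0 and 24 h. Of the shared high peaks, 213, or 5.55% (4.85 to 6.32), overlapped more than 1 low peak. Together they met 444 of the kept low peaks. The high peaks chr1:113497869-113500531 and chr18:18516375-18520373 held 4 each and chr1:67894154-67897144 held 3. Those on chromosome 1 lay on both marks, and that on chromosome 18 on RNAPII alone and in the 0 h Myc list.

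Peak width rose with score within each list, and high peaks were also wider at equal deposited score. Whether equal scores in different libraries mean equal enrichment was not tested. Peaks scoring 80 to 100 had a median of 252 bp at low and 363 bp at high Myc, and those scoring 200 to 300 had 474 and 591 bp. The 1 h and 24 h Myc lists lay between them, at 317 and 288 bp for the first range and 570 and 571 bp for the second. Peaks wider than those of the low list at equal score were thus not particular to high Myc. Over 7 score ranges the ratio of the high to the low median was 1.25 to 1.44, below the ratio of 2.43 per site. The median score was 914 among shared high peaks and 139.9 among low peaks, and Spearman's rho between the scores at the 3619 sites, which share their libraries, was 0.50. The part of score and of library depth in the widening was not tested.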

How the data were processed

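Peak lists of 9 P493-6 ChIP-seq samples were used, 5 of them Myc, 1 library each. Per the submitters' processing notes, the tools were BWA 0.6.2 (alignment), SAMtools and MACS 1.4.1 (peaks), with build hg19. Call settings are not given in the sources used here. Per the series' design text, a single input sample, not used here, served the Myc and RNAPII lists. For the high-Myc sample the notes give mm9, but its chromosome 1 peaks reach 249219825 and it was read as hg19. Sonicated fragments averaged 250 bp, per the labels' protocols. Each deposited peak carries the authors' score, from about 80 upward, which was used to rank, bin or filter peaks within a list. Widths were also compared between lists at equal score. No peak was removed, and no list of artefact-prone regions was applied. Peaks overlapping by at least 1 bp counted as shared. A distal site lay off H3K4me3 and on H3K27ac. Bins hold equal numbers of peaks. No test was made, as each state had 1 library. Alternatives were another overlap, score filters, equal list lengths, fixed width, autosomes and the 24 h list. The members and rules were chosen with earlier results of these data known. Regions named were the 3 highest by score, gain in width or number of low peaks overlapped, outside chromosome 8. The planned gene lists and cell markers were not analysed here, as no hg19 annotation was used. Python 3.11.15, numpy 2.4.6, pandas 2.3.3, scipy 1.17.1 and matplotlib 3.10.9 were used. Overlap calls were tested on simulated data (0 wrong calls among 3450 peaks) and checked against bedtools 2.31.1 on 10 pairs of lists, with equal counts.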

Additional observations from a re-analysis of the deposited data

How the results depend on the processing

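Of 67 recomputed values, 21 stayed within the interval of the reported value, 41 moved outside it and 5 changed sign. For the share of widening in the added length, the interval (15.0 to 15.0) counted base pairs, which are not independent. Even a small change there counted as a move. Among the 21, the share of H3K4me3 regions bound at low Myc could not move in 2 settings, equal numbers and the 24 h list, which leave the low list as it is. No paired analysis was possible because each state had 1 library and no test was made. The cause of the moves was not tested unless the setting itself makes it (shorter lists hold fewer sites). Leaving out sites of the 0 h Myc list and using every overlapping pair were chosen after seeing the data.

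Low peaks found at high Myc (94.3%) were 92.7% with only peaks that reached the median score, 63.7% with equal numbers of highest-scoring peaks, 89.2% at 500 bp, 88.8% with the 24 h list and 95.6% without 0 h sites. Added peaks (85.3%) were 95.3% with a 50% overlap, 41.2% with equal numbers, 79.8% with the 24 h list and 86.7% without 0 h sites. With a 50% overlap, a high peak over 2 times as wide as its only low peak counted as added. The width ratio (2.43) was 2.18 above the median score, 2.61 with equal numbers, 1.77 with the 24 h list, 2.50 without 0 h sites and 2.56 over every pair. Widening made up 15.0% of the added length, and 11.8% above the median score, 47.5% with equal numbers, 15.1% on autosomes and 16.2% with the 24 h list.

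The shared minus added difference changed sign in 5 cases. In those with a 50% overlap, widened sites had moved to the added set, and a mark also had to cover 50% of the peak. For H3K4me3 (11.6 points) it was -3.37 with a 50% overlap and -2.39 with equal numbers, and 4.85 above the median score, 13.6 with filtered marks and 3.38 with the 24 h list. For H3K27ac (6.78) it was -2.07 with a 50% overlap, -1.26 with the 24 h list, 0.153 with equal numbers, 3.26 above the median score and 12.0 with filtered marks. For 24 h RNAPII (25.7) it was -0.100 with equal numbers, 12.9 with a 50% overlap, 13.7 above the median score and 18.0 with the 24 h list. For 0 h RNAPII (19.0) it was 8.50 with a 50% overlap, 10.1 above the median score, 1.09 with equal numbers, 16.5 at 500 bp, 14.9 with filtered marks and 13.1 with the 24 h list.

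H3K4me3 regions bound at low Myc (9.93%) were 0.0701% when 50% of the region had to be covered, 5.49% above the median score and 16.6% with filtered marks. At high Myc (48.5%) they were 8.24, 31.9 and 73.8% in the same order, 12.6% with equal numbers and 38.1% with the 24 h list.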

Other observations

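The other Myc lists of the same cells held much of both site sets. Of the low peaks, 12.6% (exact 95% binomial interval 11.6 to 13.7) were present under tetracycline at 0 h, 73.0% (71.6 to 74.3) 1 h after its removal and 88.8% (87.8 to 89.7) after 24 h. A core of 3006 low peaks, 69.8%, was in the 1 h, 24 h and high lists, and 86.4% of it lay on H3K4me3. Of the added sites 0.390% were present at 0 h, 21.0% at 1 h and 49.0% at 24 h. Those found at 24 h had a median score percentile of 62.5 in the high list and the rest 28.4.

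Low sites were also wider in the later lists. The median ratio to the low width was 1.37 (binomial order-statistic 95% interval 1.35 to 1.39) at 1 h over 2901 sites and 1.77 (1.74 to 1.81) at 24 h over 3445, against 2.43 at high Myc. Sites matched between the 24 h and high lists were 1.35 times (1.34 to 1.36) as wide in the high list, at 12893 sites. The 1 h and 24 h lists have 1 library each, and their depth is unknown.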
